A study of Mus musculus with 12 samples.

Results

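The liver of mice lacking interleukin-18 was compared between 12 and 6 weeks of age. The members are the 6 arrays that the labels assign to the interleukin-18 knockout, 3 at each age, of 12 arrays in all, and all 6 lay on 1 slide. The other 6 arrays held wild type liver, 3 at each age. All mice were of the BALB/c strain and untreated, RNA came from whole liver kept in a stabilising solution, and it was labelled with 1 dye. The labels call the arrays of a group biological replicates and give no sex, hour of collection or feeding state, so p-values measure the spread between these animals only. They also do not say how the knockout allele was made. The spread behind the standard errors and p-values of the main fit is pooled over all 12 arrays, wild type included. A level below is log2 of the processed intensity of a probe minus that array's 75th percentile, and a difference is the 12-week mean minus the 6-week mean on that scale. Values of single arrays are given in the order of replicates 1, 2 and 3, which have no order in time.

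Interleukin-18 is a cytokine of the interleukin-1 family, cut to its active form by inflammasome caspases, and a driver of interferon-gamma production. Liver has a strong circadian clock. BMAL1 (Arntl) with CLOCK or NPAS2 activates genes through E-boxes, the PER, CRY and CIART proteins repress this activity, and the nuclear receptors REV-ERB (Nr1d1, Nr1d2) and ROR set the level of Arntl through ROR elements. The PAR bZIP factors DBP, TEF and HLF activate, and NFIL3 represses, genes with D-boxes. Insulin, fasting, growth hormone and sex steroids set much of the remaining variation in genes of glucose, lipid and steroid metabolism.

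The promoter windows of 4 clock genes whose transcripts moved between the ages are shown here, since they hold the letters of these elements. Each window is the 250 bases before the RefSeq start site on GRCm38.p6, written 5′ to 3′ on the strand of the gene, with the element in capitals. Positions count back from the base just before the start site, which is -1, and give the first base of the match. Ciart at chr3:95882229-95882478 on the minus strand holds the E-box CACGTG at -116, -58 and -44. Per3 at chr4:151044666-151044915 on the minus strand holds the D-box TTATGTAA at -205 and -158. Tef at chr15:81802423-81802672 on the plus strand holds 1 E-box at -127, and a second start site of Tef holds 1 at -138. Nfil3 at chr13:52981040-52981289 on the minus strand holds 1 match to AGGTCA, the letters searched for as ROR element, at -12. This match is read here on the opposite strand as TGACCT.
Ciart: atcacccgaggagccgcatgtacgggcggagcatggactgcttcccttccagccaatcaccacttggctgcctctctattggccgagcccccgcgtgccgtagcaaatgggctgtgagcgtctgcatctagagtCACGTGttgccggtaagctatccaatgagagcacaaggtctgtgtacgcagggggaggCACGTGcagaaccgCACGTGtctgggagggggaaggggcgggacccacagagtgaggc
Per3: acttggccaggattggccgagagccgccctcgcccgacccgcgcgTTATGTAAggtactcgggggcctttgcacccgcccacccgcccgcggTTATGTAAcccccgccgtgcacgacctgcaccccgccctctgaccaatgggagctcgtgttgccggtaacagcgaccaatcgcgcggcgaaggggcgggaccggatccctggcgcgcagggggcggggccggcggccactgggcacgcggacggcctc
Tef: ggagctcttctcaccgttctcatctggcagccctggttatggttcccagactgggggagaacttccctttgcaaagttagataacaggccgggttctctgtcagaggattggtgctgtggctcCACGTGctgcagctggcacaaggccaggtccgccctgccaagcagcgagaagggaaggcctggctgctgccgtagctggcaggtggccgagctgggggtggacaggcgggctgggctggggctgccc
Nfil3: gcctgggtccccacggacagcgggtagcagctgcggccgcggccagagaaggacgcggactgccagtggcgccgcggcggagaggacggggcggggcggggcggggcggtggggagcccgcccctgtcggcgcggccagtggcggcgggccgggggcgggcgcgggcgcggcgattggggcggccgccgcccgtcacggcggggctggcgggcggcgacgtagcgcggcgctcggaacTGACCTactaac
Both strands were searched in 32851 promoter windows of this length. CACGTG stood in 6.02% of them, TTATGTAA in 0.819% and AGGTCA in 14.0%. Of the 36 clock genes tested, 30 matched a window by symbol. Among these, 6 held CACGTG (Bhlhe41, Ciart, Cry1, Per1, Tef and Tspan4), 1 held TTATGTAA (Per3), and 7 held AGGTCA (Clock, Leo1, Lpin1, Nampt, Nfil3, Nr1d2 and Per1). Some genes have several windows, whereas the shares above are per window. Of the 42 windows of these genes, 7 held CACGTG, 1 held TTATGTAA and 7 held AGGTCA. The windows of Dbp, Usp2, Nr1d1 and Per3 held no CACGTG, and those of Arntl held no AGGTCA. A match says only that these letters are in the window.

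Il18, the targeted gene, was read by 1 probe at chr9:50389761-50389820 (mm9). Its level was 0.18, 0.17 and -0.18 on the 6-week knockout arrays and 0.16, 0.09 and 0.23 on the 12-week knockout arrays. Wild type arrays had 2.62, 2.60 and 2.53 at 6 weeks and 2.43, 2.34 and 2.69 at 12 weeks, above every knockout array. The probe was well above background on all knockout arrays, and the labels do not say whether it lies in the removed part of the gene, so its residual signal says nothing of intact transcript. Il18 did not pass the test between the ages (0.10 ± 0.12, SE, n = 3 per group, adjusted p = 0.686).

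The knockout arrays were alike in depth, with a 75th percentile of 349 to 385 scanner units and 53.4% to 56.6% of spots well above background. Pairs of arrays of 1 age correlated at 0.992 to 0.996 over the genes and pairs of different ages at 0.987 to 0.992 (genes do not count as replicates). The first principal component of the 6 arrays held 49.0% of the variance and separated the ages, at -34.2 to -24.1 at 6 weeks and 25.6 to 34.3 at 12 weeks. Replicates 1 and 2 of 6 weeks lay in row 1 of the slide, and replicate 3 of 6 weeks and all 12-week arrays in row 2. Albumin (Alb), the main secreted product of hepatocytes, differed by -0.05 ± 0.10 between the ages and did not pass (adjusted p = 0.814). Ddx3y, Eif2s3y and Uty, on the Y chromosome, were well above background on all 12 arrays, and Kdm5d, also on the Y, and Xist, expressed from the inactive X chromosome, on 0.

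Of 22125 genes tested with limma, 1499 (6.78%) passed an adjusted p of 0.05 between 6 and 12 weeks in the knockout, 859 higher (3.88%) and 640 lower (2.89%) at 12 weeks. For 382 of them the difference was at least 2-fold, with 254 higher and 128 lower. In none of the 1499 did the 2 groups overlap, whereas 32.4% of all genes tested did not overlap, 15.5% with higher and 16.9% with lower levels at 12 weeks. A lack of overlap is therefore shared by all 1499 and adds no support to a called gene below. The median difference over all genes was -0.02. With the slide row as a block 739 genes passed, and in a fit limited to the 8 arrays of row 2 (4 of the knockout, with the spread shared with wild type arrays of the other slide) 416 did. Leaving out single arrays gave 582 genes (without 12-week replicate 2) to 891 (without 12-week replicate 1), with 841, 800 and 773 without replicates 1, 2 and 3 of 6 weeks and 695 without 12-week replicate 3. Arrays were always left out 1 at a time, so a call lost without several arrays was lost in several separate fits.

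The clock genes differed most. Of 36 members tested in the clock lists, 16 rose and 9 fell, so that 69.4% passed, against 6.78% of all genes. Their median difference was 0.59, against -0.02 over all genes. Dbp, Ciart, Usp2, Per3, Wee1 and Tef were among those that rose, and Arntl, Npas2 and Nfil3 among those that fell. In whole liver, fewer cells of a type and less RNA per cell cannot be told apart. Whether the groups were collected at the same hour is not given, and the part of the hour in these differences was not tested.

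Dbp, a PAR bZIP factor under direct E-box control, had levels of 0.45, 0.34 and 0.10 at 6 weeks and 6.85, 7.08 and 7.05 at 12 weeks. It rose 104-fold, the largest difference of any gene tested (6.70 ± 0.26, adjusted p = 1.31e-06). Its probe lies at chr7:52965322-52965381 (mm9), and a further probe of Dbp gave 6.41. Tef went from 3.61, 3.92 and 4.04 to 6.55, 6.76 and 6.64, a rise of 6.92-fold (2.79 ± 0.19, adjusted p = 7.81e-05). All 12-week arrays stood above all 6-week arrays for both genes. The third PAR bZIP gene, Hlf, rose 2.01-fold (SE of the log2 difference 0.11, adjusted p = 0.00106), from 2.27, 2.06 and 2.06 to 3.14, 3.22 and 3.04. Nfil3, the repressor at the same D-boxes, moved the other way, from 4.88, 5.13 and 5.14 down to 2.89, 2.65 and 2.59. That is a 5.06-fold fall (-2.34 ± 0.13, adjusted p = 2.88e-05).

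Among the activators, Arntl had levels of 2.75, 2.49 and 1.76 at 6 weeks and -0.26, -1.12 and -1.26 at 12 weeks. It fell 9.26-fold (-3.21 ± 0.38, adjusted p = 0.00133), with every 12-week array below every 6-week array. Npas2, the paralogue of Clock, had -3.00, -3.22 and -3.27 at 6 weeks and was not well above background on any 12-week array. For such a gene the fold is given as a bound against the dimmest signal that is well above background. The adjusted p beside a bound is that of the fit, which used the dim levels as they stand. Npas2 was at least 2.50-fold lower (adjusted p = 0.000589). Clock itself fell by 0.56 ± 0.13 on the log2 scale (adjusted p = 0.0275), from 1.14, 1.38 and 1.44 to 0.83, 0.80 and 0.64. Its call was lost without each knockout array but 6-week replicate 1 (adjusted p up to 0.0978). Within slide row 2, Arntl differed by -2.64 (adjusted p = 0.0599).

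Repressors of the loop mostly rose. Ciart, which represses CLOCK and BMAL1, was not well above background on any 6-week array and stood at -0.30, 0.06 and -0.05 at 12 weeks, at least 19.1-fold higher (adjusted p = 0.000177). Per3 was likewise dim at 6 weeks and at -2.53, -1.84 and -1.93 at 12 weeks, at least 4.78-fold higher (adjusted p = 0.00027). Per2 rose from -1.89, -2.40 and -3.04 to -0.41, -0.27 and -0.39 (2.09 ± 0.27, adjusted p = 0.0021). Per1 did not pass: it stood at 1.90, 2.93 and 3.04 at 6 weeks and 3.11, 3.05 and 3.60 at 12 weeks (0.63 ± 0.33, adjusted p = 0.306). The cryptochromes split. Cry2 rose from 3.41, 3.15 and 3.24 to 4.70, 4.61 and 4.37 (1.29 ± 0.17, adjusted p = 0.00213), while a second Cry2 probe gave 0.70 and did not pass. Cry1 fell from -1.81, -2.42 and -2.41 to -3.17, -3.56 and -4.54 (-1.54 ± 0.34, adjusted p = 0.0258), a call lost without each knockout array but 12-week replicate 1 (adjusted p up to 0.0805). Bhlhe41, a repressor at E-boxes, was at least 2.99-fold higher (adjusted p = 0.00923), and its relative Bhlhe40 differed by 0.97 (adjusted p = 0.131).

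Both REV-ERB genes rose. Nr1d1 had levels of -1.23, -1.04 and -0.13 at 6 weeks and 1.50, 1.41 and 0.88 at 12 weeks (2.06 ± 0.33, adjusted p = 0.00617). Nr1d2 had 0.72, 1.73 and 1.86 at 6 weeks and 3.52, 3.65 and 3.58 at 12 weeks (2.15 ± 0.25, adjusted p = 0.00124). The groups did not overlap for either receptor. The ROR gene Rora, whose product acts on the same elements, differed by -0.25 and did not pass (adjusted p = 0.288). Of the kinases that phosphorylate PER proteins, Csnk1e rose by 0.55 (adjusted p = 0.0129, and 0.0547 without 12-week replicate 2), while its second probe, at 0.20, and Csnk1d, at -0.13, did not pass.

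Of 20 clock output genes tested, 9 rose and 5 fell (70.0%, against 6.78% of all genes). Usp2, a rhythmic deubiquitinase, had levels of -1.18, -1.09 and -0.96 at 6 weeks and 2.84, 3.07 and 3.13 at 12 weeks (4.09 ± 0.29, adjusted p = 0.000102). Wee1, a kinase that holds back entry into mitosis, went from -1.83, -2.21 and -2.59 to 0.57, 1.29 and 1.01, a rise of 8.99-fold (3.17 ± 0.34, adjusted p = 0.00101). Leo1, a subunit of the Paf1 complex, fell from 2.26, 2.25 and 2.07 to 1.27, 0.86 and 0.94 (-1.17 ± 0.13, adjusted p = 0.00124). The groups stood apart in all 3 genes. Further falls were those of Avpr1a, the vasopressin receptor of hepatocytes, by 1.57, of Tsc22d3, a glucocorticoid-induced leucine zipper gene, by 1.51, and of Rnf125, a ubiquitin ligase gene, by 1.37 on the log2 scale. Nampt (NAD salvage) rose by 0.79, Por (P450 reductase) by 1.06 and Mknk2 (a kinase of eIF4E) by 1.01. These last calls were fragile, since Nampt was lost without each knockout array but 12-week replicate 1 (adjusted p up to 0.132), Por without each but 6-week replicate 3 (up to 0.139) and Mknk2 without 12-week replicate 1 (0.0547). Rgs16, Noct, Lpin1, Alas1, Tspan4 and Kcnk5 did not pass, with Rgs16 at 1.83 (adjusted p = 0.0942).

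**Figure D1:**
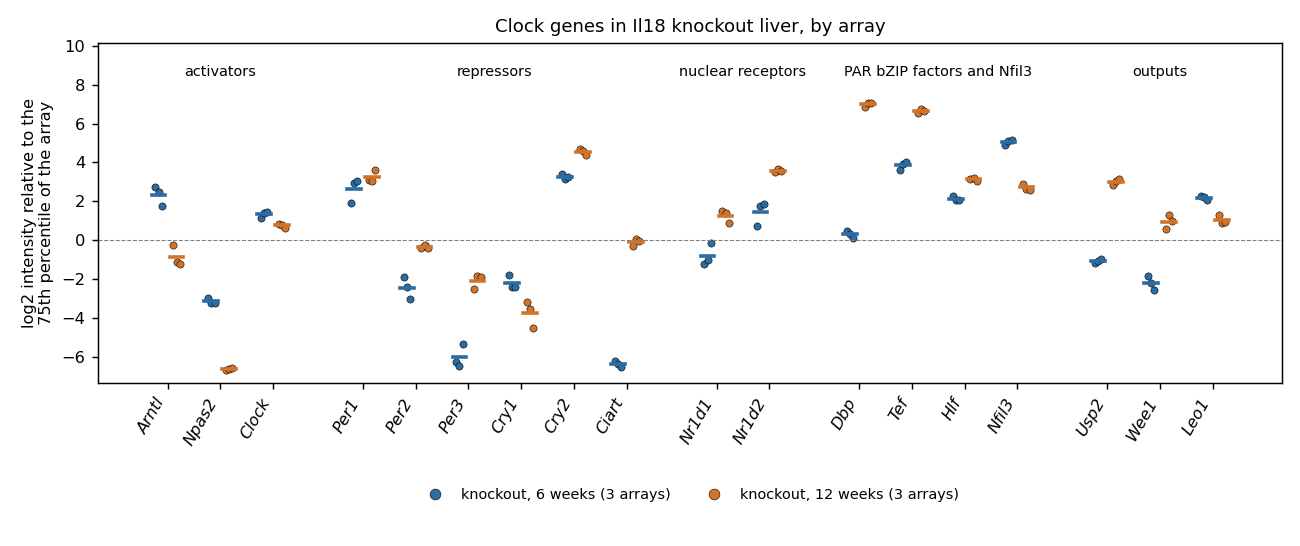
Levels of 18 clock genes on the 6 knockout arrays, as log2 intensity relative to the 75th percentile of the array on the vertical axis, with 1 point per array and a bar at the mean of 3. The 12-week points lie above the 6-week points for Dbp, Usp2, Ciart and Per3 and below them for Arntl, Npas2 and Nfil3. For Per1, which did not pass, the lowest 12-week point lies just above the highest 6-week point.

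When 1 knockout array was left out, 13 to 15 clock genes rose and 7 to 8 fell. With only probes well above background on all 12 arrays, which drops Ciart, Per3 and Npas2, 13 rose and 7 fell. With the slide row as a block 12 rose and 7 fell, and in the fit limited to row 2, 11 rose and 2 fell. With normexp background correction and quantile scaling together Ciart differed by 2.69, Per3 by 1.17 and Npas2 by -0.69, and with quantile scaling alone by 6.32, 4.06 and -3.41, all still past the threshold.

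The same genes moved differently in wild type. Of the 36 clock genes, 5 rose and 13 fell from 6 to 12 weeks in wild type (9.08% of all genes passed there), with a median of -0.54. A test of the difference between the genotypes, the knockout age difference minus the wild type one, was passed by 2306 genes (10.4%) and by 23 of the 36 clock genes. Dbp in wild type stood at 7.22, 7.10 and 7.00 at 6 weeks and 5.09, 5.74 and 6.41 at 12 weeks. The age difference of Dbp was larger in the knockout by 8.06 (adjusted p = 6.70e-06). Arntl in wild type went from -3.27, -2.34 and -2.89 up to 0.70, 0.42 and -0.33, and its age differences differed by -6.31 (adjusted p = 0.000185). For Usp2 the difference between genotypes was 7.14 and for Nfil3 -3.06 (adjusted p = 3.86e-05 for each). At 6 weeks wild type was on the other slide only and at 12 weeks on both, so slide and group are partly confounded there, and with the slide as a fixed block 1603 genes passed.

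**Figure D2:**
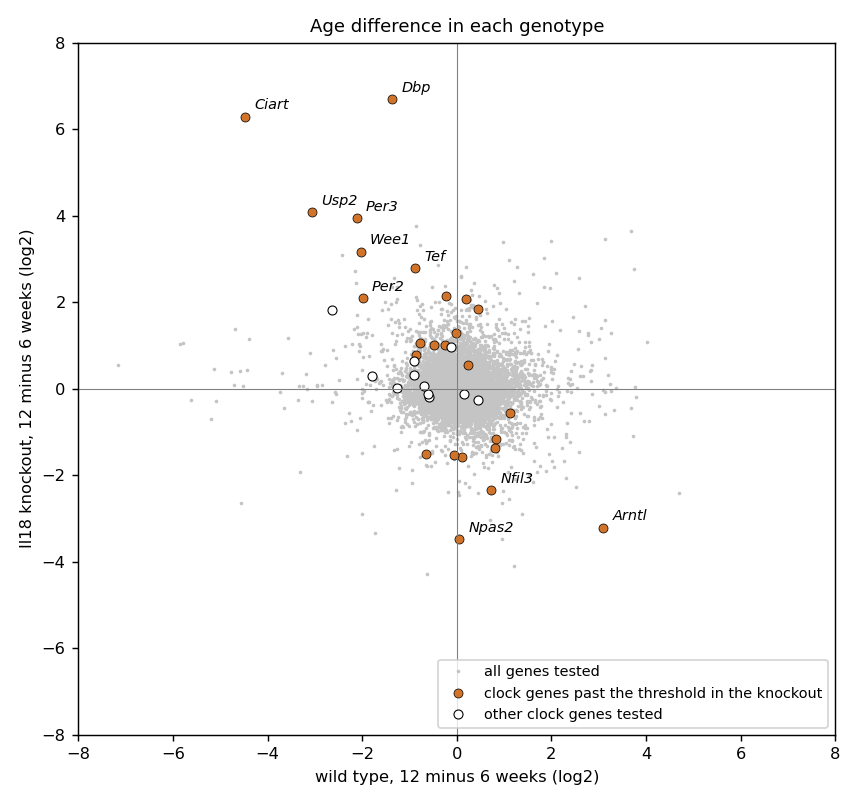
Age difference (12 minus 6 weeks, log2) of each of 22125 genes in wild type on the horizontal axis and in the knockout on the vertical axis, with clock genes marked by whether they passed in the knockout. Dbp, Ciart, Usp2, Per3, Wee1, Tef and Per2 lie to the upper left and Arntl to the lower right, so their differences had opposite signs in the genotypes.

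Over all genes, 107 passed in both genotypes with the same sign (7.14% of the knockout calls and 5.33% of the wild type calls) and 291 with opposite signs (19.4% and 14.5%). Irx1, a homeobox gene, belonged to the first kind and rose by 2.76 ± 0.30 in the knockout (adjusted p = 0.00105), from -3.17, -3.80 and -4.11 to -0.95, -0.81 and -1.03, and by 3.75 in wild type. Igf2bp3, an mRNA-binding protein gene of fetal liver, was well above background on 2 of the 6-week and 0 of the 12-week knockout arrays and was at least 1.67-fold lower at 12 weeks (adjusted p = 7.81e-05), and it fell by 4.57 on the log2 scale in wild type. It was 1 of 2 called among 15 genes of fetal and early postnatal liver (13.3%, against 6.78% of all genes). The other was Meg3, an imprinted non-coding RNA gene, at 1.35, whose call was lost without any single knockout array (adjusted p up to 0.0915).

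Of 23 genes of glucose handling tested, 4 rose and 2 fell (26.1%, against 6.78% of all genes), with a median of -0.06. G6pc, the catalytic subunit of glucose-6-phosphatase that releases glucose from hepatocytes, had levels of 8.19, 8.34 and 8.03 at 6 weeks and 5.58, 5.50 and 5.84 at 12 weeks. It fell 5.84-fold (-2.55 ± 0.29, adjusted p = 0.00118), while it rose by 1.10 in wild type, and the age differences differed by -3.65 (adjusted p = 0.000872). Igfbp1, an insulin-repressed gene for a secreted binding protein of insulin-like growth factors, had 7.51, 8.55 and 8.84 at 6 weeks and 4.68, 3.47 and 3.92 at 12 weeks. It fell 19.4-fold (-4.28 ± 0.44, adjusted p = 0.000733). Pck1, the cytosolic PEP carboxykinase of gluconeogenesis, overlapped between the ages, at 8.10, 8.54 and 8.99 against 8.34, 8.18 and 7.97 (-0.38 ± 0.23, adjusted p = 0.387). Gys2, the liver glycogen synthase, rose from 6.18, 6.22 and 6.29 to 7.14, 7.40 and 7.26 (1.04 ± 0.15, adjusted p = 0.00378). Pfkfb1, the liver enzyme that makes and removes fructose 2,6-bisphosphate, rose by 1.27 ± 0.17 (adjusted p = 0.00246), and Slc2a2, the glucose transporter of hepatocytes, by 0.73 ± 0.12 (adjusted p = 0.00781). Trib3, a pseudokinase gene, rose by 1.63 (adjusted p = 0.0282), a call lost without replicates 1 and 2 of either age (up to 0.107). Irs2, an insulin receptor substrate counted in another list, fell by 1.10 on the log2 scale (adjusted p = 0.0222), and its call was lost without replicates 2 and 3 of either age (up to 0.0807).

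Of 18 lipid droplet genes, 5 rose and 0 fell (27.8%, against 6.78% of all genes), with a median of 0.63. Cidec, which encodes a protein that enlarges lipid droplets, had levels of -2.26, -1.44 and -1.39 at 6 weeks and 0.49, 1.27 and 0.89 at 12 weeks. It rose 5.99-fold (2.58 ± 0.34, adjusted p = 0.00252), and its second probe, at 1.14, did not pass. Mogat1, a monoacylglycerol acyltransferase, rose from -3.17, -2.72 and -2.49 to -1.14, -0.77 and -0.83 (1.88 ± 0.23, adjusted p = 0.00174). Fitm1, a protein that partitions fat into droplets, rose from 1.95, 1.48 and 1.98 to 3.23, 3.14 and 3.19 (1.39 ± 0.19, adjusted p = 0.00349). The groups did not overlap in these 3 genes. Pparg rose by 0.71 (adjusted p = 0.0425) and the fatty acid transporter gene Cd36 by 1.03 (adjusted p = 0.0489), calls lost without each knockout array but 12-week replicate 1 (up to 0.126) and without any single knockout array (up to 0.173). Plin2, a coat protein of droplets, did not pass (-0.04, adjusted p = 0.95). In the fit limited to slide row 2, 0 of the 18 passed, with Cidec at 2.27 (adjusted p = 0.0949). Of 5 adipocyte markers tested, 2 of which also stand in the lipid droplet list, 0 passed by limma (2 at an unadjusted p under 0.05), with a median of 1.11 and a range of -0.24 to 2.39. Cfd, adipsin, differed by 2.39 (adjusted p = 0.131). Cidea, another lipid droplet protein gene, was well above background on 0 of the 6-week and 3 of the 12-week arrays (adjusted p = 0.204), and Retn, resistin, on 1 and 3 (1.11, adjusted p = 0.329). The summed level of the markers was 9.09 to 9.30 at 6 weeks and 9.13 to 9.38 at 12 weeks. It is log2 of the added intensities, so the brightest markers set it and dim ones such as Cidea and Retn weigh little. Adipoq, Lep, Plin1 and Ucp1 were not well above background on any knockout array. The part of adipocyte RNA in the lipid droplet values was not tested.

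Of 30 genes of fatty acid oxidation and the PPARα response, 7 rose and 1 fell (26.7%, against 6.78% of all genes). Their median was 0.38. Ppara, the nuclear receptor gene itself, had levels of 5.75, 5.65 and 6.08 at 6 weeks and 6.49, 6.71 and 6.57 at 12 weeks (0.76 ± 0.13, adjusted p = 0.00864). Its other 2 probes gave 0.96 and 0.75, and its call was lost with the slide row as a block (adjusted p = 0.0544). Pdk4, the kinase that shuts off pyruvate dehydrogenase in fasting, was the one that fell, from 1.32, 0.66 and 0.98 to -0.76, -0.94 and -1.14 (-1.93 ± 0.27, adjusted p = 0.00328). In wild type Pdk4 rose by 1.70, and the age differences differed by -3.63 (adjusted p = 0.000642). Other rises were small, such as 0.78 for the thiolase gene Acaa1b, whose sequence is close to that of Acaa1a, at 0.57. Acadm rose by 0.47, Aldh3a2 by 0.63 and Cpt1a, the gate to mitochondrial oxidation, by 0.66 (0.54 and not passing on its second probe). These 5 calls were lost without 12-week replicate 2 (adjusted p up to 0.147 over the arrays left out), and 1 to 4 of the 30 genes rose when a single knockout array was left out. Cyp4a14, a PPARα target, stood at 1.62 and did not pass (adjusted p = 0.0872). Outside the list, Ppard, another PPAR gene, fell from 3.76, 2.69 and 2.54 to 0.72, 0.57 and 0.53 (-2.38 ± 0.25, adjusted p = 0.000956), and Acsm2, a medium-chain acyl-CoA synthetase, from 0.17, -0.17 and 0.06 to -2.06, -2.75 and -2.40 (-2.42 ± 0.28, adjusted p = 0.00133). Of 22 fatty acid synthesis genes 0 passed by limma (3 at an unadjusted p under 0.05), and of 23 cholesterol synthesis and uptake genes 1 rose, Stard4, at 0.59, a call lost without each knockout array but 6-week replicate 2 (up to 0.0956). The second probe of Stard4, at 0.41, did not pass.

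Of 20 genes of lipoproteins, 1 rose and 5 fell (30.0%, against 6.78% of all genes), with a median of -0.13. Lpl, lipoprotein lipase, had levels of 3.67, 3.60 and 3.55 at 6 weeks and 2.52, 2.08 and 2.24 at 12 weeks (-1.33 ± 0.20, adjusted p = 0.00503). Pltp, the phospholipid transfer protein, rose from 1.46, 1.39 and 1.34 to 2.57, 2.80 and 2.68 (1.29 ± 0.23, adjusted p = 0.0103), and it rose by 1.02 in wild type. Falls of the apolipoprotein genes were smaller: Apom by 0.52, Apoa1 by 0.38 and Apof by 0.34 on the log2 scale. Abca1, the cholesterol exporter, fell by 0.37 on that scale. Of these, Apoa1 was lost without each knockout array but 12-week replicate 1 (adjusted p up to 0.104), Apof without 6-week replicate 2 and 12-week replicates 2 and 3 (up to 0.0633), and Abca1 without 6-week replicate 2 and 12-week replicates 1 and 2 (up to 0.0641).

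Cdkn1a, the gene of the p21 inhibitor of the cell cycle, had levels of 1.78, 1.47 and 2.15 at 6 weeks and -1.59, -2.46 and -2.84 at 12 weeks. It fell 17.1-fold (-4.09 ± 0.28, adjusted p = 7.81e-05), while it rose by 1.21 in wild type, and the age differences differed by -5.31 (adjusted p = 0.000102). Gadd45a, a growth arrest gene, rose from -0.94, -2.17 and -2.34 to 1.21, 0.77 and 0.39 (2.61 ± 0.41, adjusted p = 0.00608), and Ccng1, cyclin G1, rose by 0.51 (adjusted p = 0.00447). Mdm2, the ubiquitin ligase of p53, did not pass (-0.02, adjusted p = 0.949). In all, 3 of 20 p53 targets rose and 2 fell (25.0%, against 6.78% of all genes), with a median of 0.09. The remaining calls of that list were lost on leaving out arrays: Sesn1, at 0.46, without each knockout array but 12-week replicate 3 (adjusted p up to 0.141), and Trp53inp1, at -1.08, without replicates 2 and 3 of either age (up to 0.0702). Ddit4, an inhibitor of mTORC1 chosen after its values were seen, fell from 4.14, 3.54 and 4.07 to 2.21, 2.23 and 1.97 (-1.78 ± 0.26, adjusted p = 0.00444).

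Of 25 cell cycle genes, 2 rose and 1 fell (12.0%, against 6.78% of all genes), with a median of -0.17. These were Rrm2 at 0.99, Ccne1 at 0.80 and Mcm6 at -0.75. Each call was kept in only 1 of the fits that left out a single knockout array (adjusted p up to 0.133). Mki67, the proliferation marker, did not pass (-0.35, adjusted p = 0.629). Of 18 immediate early genes 2 rose (11.1%). Myc had levels of -1.86, -1.15 and -1.32 at 6 weeks and 1.74, 1.48 and 1.50 at 12 weeks (3.02 ± 0.69, adjusted p = 0.0297). The call of Myc was lost without any single knockout array, with adjusted p from 0.0676 to 0.0907. Junb rose by 1.50 ± 0.20 (adjusted p = 0.00304). Socs3, a feedback inhibitor of cytokine and growth hormone signals, rose from 0.92, 0.66 and 0.96 to 4.47, 3.52 and 2.49 (2.65 ± 0.52, adjusted p = 0.0159). Its 12-week arrays differed widely among themselves, and the call was lost without replicate 2 of 6 weeks (0.0547) or of 12 weeks (0.0605).

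Of 18 male-biased genes, 0 rose and 4 fell, with a median of -0.09, and of 21 female-biased genes, 2 rose and 1 fell, with a median of 0.14 (6.78% of all genes passed). In wild type, where 9.08% of all genes passed, 13 of the male-biased genes rose and 0 fell, and 0 of the female-biased ones rose and 15 fell. Elovl3, a male-biased fatty acid elongase, had knockout levels of 7.11, 7.30 and 7.35 at 6 weeks and 5.34, 4.56 and 4.61 at 12 weeks. It fell 5.34-fold (-2.42 ± 0.34, adjusted p = 0.00355), whereas in wild type it rose from 0.48, 1.86 and 0.90 to 5.97, 6.06 and 5.33, and the age differences differed by -7.12 (adjusted p = 5.70e-05). Cspg5, a proteoglycan gene of the male-biased list, fell from 0.77, 0.59 and 0.98 to -0.67, -1.14 and -0.90 (-1.68 ± 0.22, adjusted p = 0.00262). Cyp2a4, a female-biased steroid hydroxylase that is near-identical to Cyp2a5, so that its probe may read both, rose from 7.04, 7.54 and 7.39 to 8.94, 9.03 and 8.63 (1.55 ± 0.26, adjusted p = 0.00805). Prlr, the prolactin receptor gene, fell by 1.23 ± 0.20 on the log2 scale (adjusted p = 0.00699). Cyp2b13, a female-biased P450 that fell by 7.17 in wild type, was not well above background on any knockout array. C6, a male-biased complement gene, did not pass in the knockout (0.03, adjusted p = 0.947) and rose by 3.77 in wild type. The calls of Slco1a1 at -0.43 and Sult1e1 at 1.60 were lost without any single knockout array (adjusted p up to 0.135 and 0.146), and that of C8b at -0.58 without each but 12-week replicate 3 (up to 0.0698).

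**Figure D3:**
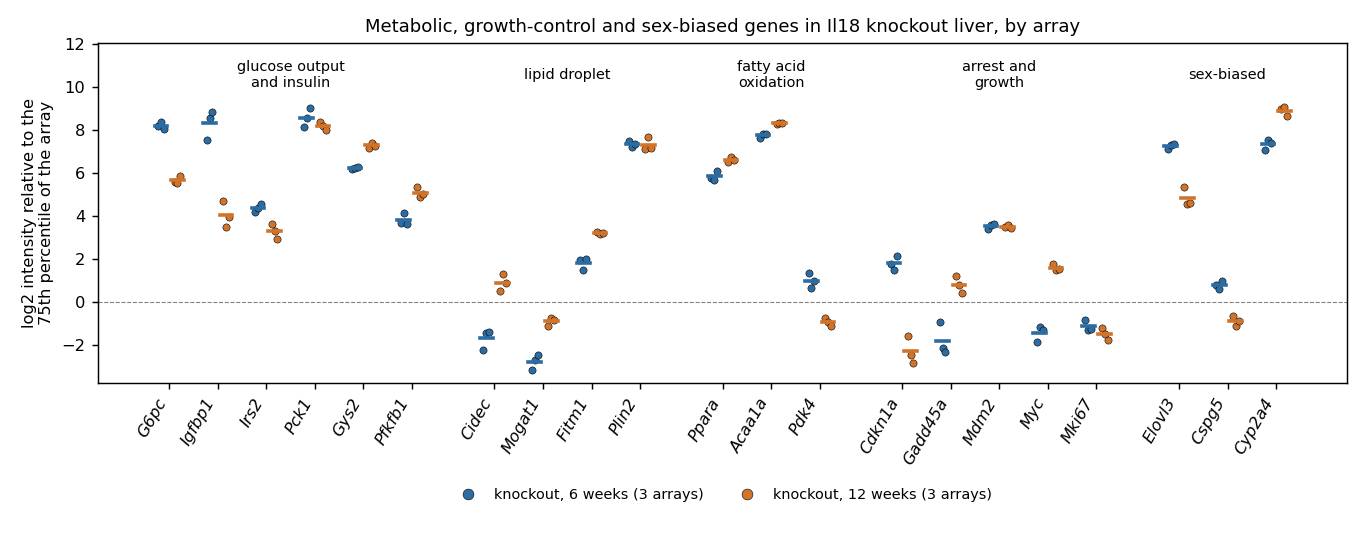
Levels of 21 genes of glucose handling, lipid droplets, fatty acid oxidation, growth control and sex bias on the 6 knockout arrays, as log2 intensity relative to the 75th percentile of the array on the vertical axis, with 1 point per array and a bar at the mean of 3. Cdkn1a, Igfbp1, G6pc, Pdk4 and Elovl3 lie lower at 12 weeks with no overlap, Cidec, Mogat1, Fitm1 and Gadd45a higher, and Pck1, Plin2, Mdm2 and Mki67 overlap.

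Of 28 acute phase and complement genes, 0 rose and 7 fell (25.0%, against 6.78% of all genes), with a median of -0.32. C8a, a chain of the membrane attack complex, had levels of 6.81, 6.83 and 6.85 at 6 weeks and 6.42, 6.34 and 6.39 at 12 weeks (-0.45 ± 0.07, adjusted p = 0.00675). Cfb, complement factor B, went from 8.50, 8.45 and 8.46 to 8.02, 8.02 and 7.95 (-0.47 ± 0.07, adjusted p = 0.00429). Both were well separated by age, though the falls were small. C9, another part of the attack complex, fell by 0.67, Itih3 by 0.48 and the factor I gene Cfi by 0.32 on the log2 scale, and so did Cp (ceruloplasmin) by 0.36. The calls of C9, Cfi and Itih3 were lost without any single knockout array and that of Cp without each but 12-week replicate 1 (adjusted p up to 0.142), so that 2 to 3 of the list fell when 1 array was left out. The second probe of Cp, at 0.08, did not pass.

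Of 22 type I interferon genes, 0 rose and 3 fell, with a median of -0.24. Bst2, tetherin, fell from 7.03, 6.84 and 6.83 to 6.35, 6.25 and 6.15 (-0.65 ± 0.10, adjusted p = 0.00478), and Cmpk2, a mitochondrial nucleotide kinase, by 0.87 ± 0.16 on the log2 scale (adjusted p = 0.0124, and 0.0531 without 12-week replicate 2). Isg15 fell by 0.59, a call lost without each knockout array but 6-week replicate 3 (up to 0.143). Its second probe, at -0.71, did not pass. Of 23 interferon-gamma genes 1 rose, Irf1 at 0.87, and of 12 genes of interleukin-18 and the inflammasome 1 fell, Il6 at -0.97. Il6 was dim, not well above background on all 3 arrays of either knockout group, and its smallest difference among the alternatives was -0.17. Of 18 genes of antigen presentation 1 rose, Nlrc5 at 0.81, whose second probe, at 0.13, did not pass. The shares called in these 3 lists, 4.35%, 8.33% and 5.56%, were near the 6.78% of all genes. With 1 knockout array left out at a time, each of these 3 calls was lost in 4 or more of the 6 fits (adjusted p up to 0.151).

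No marker of 18 Kupffer cell and macrophage, 18 NK and T cell, 18 sinusoidal endothelial, 10 B and plasma cell and 10 cholangiocyte markers passed by limma, and at an unadjusted p under 0.05 the counts were 2, 1, 2, 1 and 3. The summed level of the Kupffer markers was 7.71 to 7.86 at 6 weeks and 7.45 to 8.03 at 12 weeks, and that of the NK and T cell markers 5.81 to 6.22 and 5.53 to 5.88. In such sums of intensities the brightest markers weigh most. Single calls were made for Camp of 9 neutrophil and monocyte markers (-0.56), Klf1 of 9 erythroid markers (1.09), Cela2a of 5 pancreas markers (-0.99) and Col4a1 of 23 stellate cell and collagen genes (-0.75; the list had a median of -0.26, and 6 of it fell without 12-week replicate 1). Each of these 4 was lost without 3 or more of the knockout arrays (adjusted p up to 0.132). The second probe of Camp, at -0.33, did not pass.

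**Figure D4:**
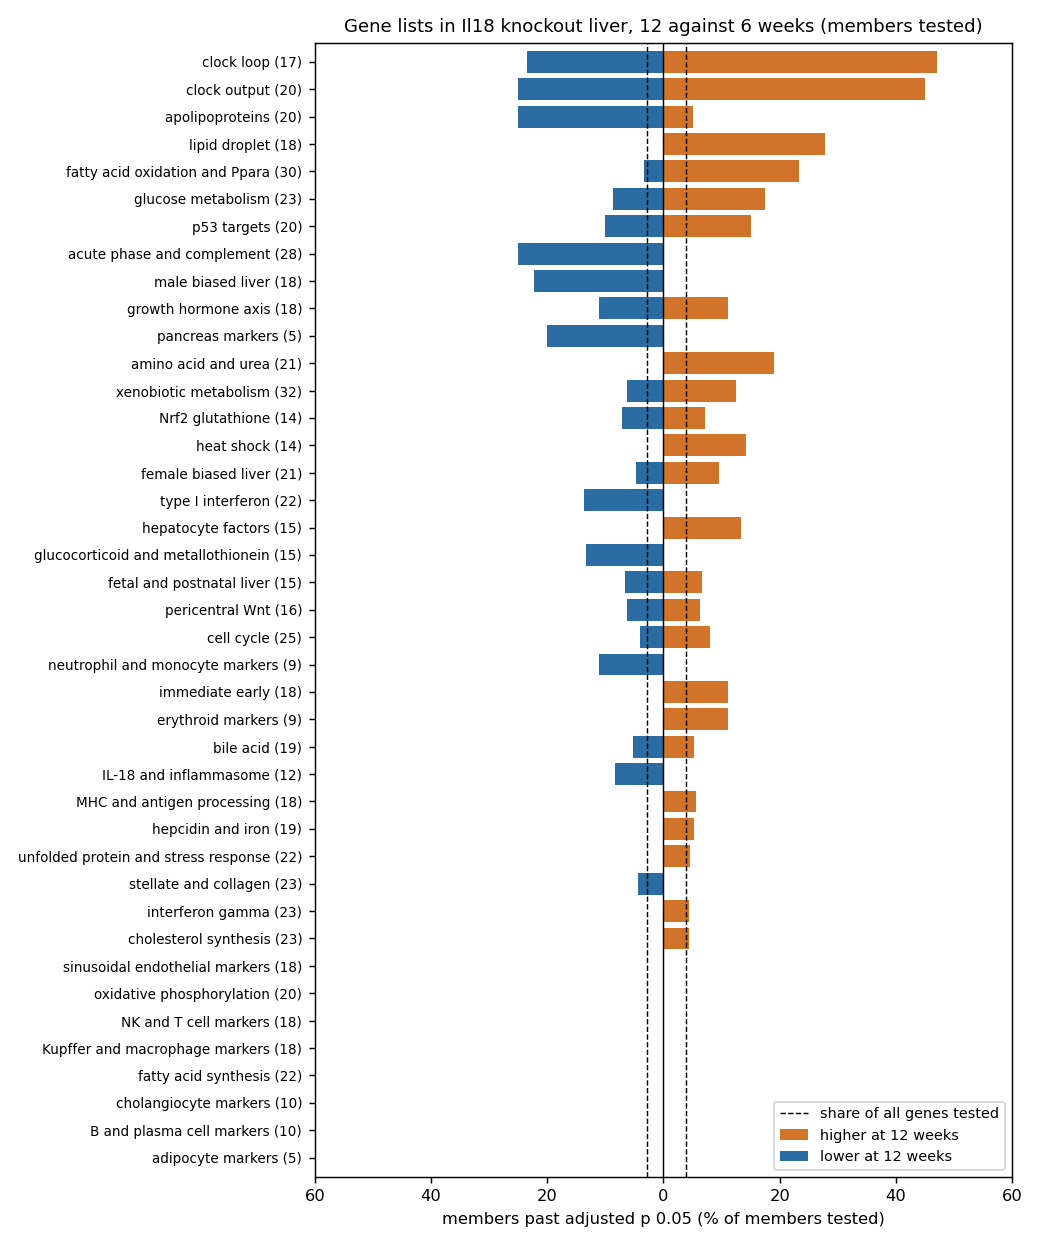
Share of the tested members of each gene list (number in brackets) that passed an adjusted p of 0.05 between 12 and 6 weeks in the knockout, in percent, with genes higher at 12 weeks to the right and lower to the left. Dashed lines mark the shares of all genes, 3.88% higher and 2.89% lower, and the clock lists reach the largest shares.

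Among the largest differences outside the lists, Grk5, a kinase of G protein-coupled receptors, had levels of 1.85, 1.71 and 1.68 at 6 weeks and -0.95, -1.21 and -1.31 at 12 weeks (-2.90 ± 0.11, adjusted p = 1.31e-06). It rose by 1.37 in wild type, and the age differences differed by -4.27 (adjusted p = 1.54e-06). Loxl4, a lysyl oxidase of collagen cross-linking, fell 11.1-fold, from 0.43, -0.83 and -0.95 to -3.40, -4.32 and -4.05 (-3.47 ± 0.36, adjusted p = 0.000781), and its second probe gave -3.54. The first probe was well above background on 2 of the 12-week arrays, and its smallest difference among the alternatives was -1.87. Dnmt3b, a de novo DNA methyltransferase, fell from 1.66, 1.50 and 1.18 to -1.01, -1.14 and -0.75 (-2.41 ± 0.21, adjusted p = 0.000376), and its other probes gave -2.03 and -1.42. All 12-week arrays lay below all 6-week arrays for these genes, but no gene that passed had overlapping groups. Tubb2a, a beta tubulin, fell from 7.59, 7.04 and 6.80 to 5.45, 4.50 and 4.64 (-2.28 ± 0.30, adjusted p = 0.00241), and rose by 2.51 in wild type. The homeobox gene Meox1, the aggrecanase gene Adamts4 and the small GTPase gene Arl4d fell by 2.64, 2.37 and 2.34 on the log2 scale. The folate enzyme gene Mthfd2 fell by 2.06 ± 0.48 on that scale (adjusted p = 0.0322), a call lost without each knockout array but 6-week replicate 2 (up to 0.111).

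Rises outside the lists included ligands of the NKG2D receptor of NK cells. Raet1c had levels of -1.94, -2.40 and -2.41 at 6 weeks and 0.33, 0.76 and 0.19 at 12 weeks (2.68 ± 0.23, adjusted p = 0.000274), and it rose by 2.09 in wild type. Raet1e, chosen after its values were seen, went from 2.45, 2.37 and 2.31 to 4.56, 4.75 and 4.28 (2.15 ± 0.20, adjusted p = 0.000446). Raet1a, chosen likewise, was at least 1.47-fold higher (adjusted p = 0.0105, and 0.0663 with the slide row as a block). These genes are close copies, and their probes may read one another's transcripts. Tchh, a hair follicle protein gene, rose from -3.82, -2.73 and -4.25 to 0.05, -0.17 and -0.42 (3.42 ± 0.50, adjusted p = 0.00444). Flacc1, a coiled-coil protein gene dim at 6 weeks, was at least 4.12-fold higher (adjusted p = 0.00124). Fmr1nb at 3.76 (adjusted p = 0.044) was lost without any single knockout array (up to 0.133), and Prr18, at least 3.75-fold higher (adjusted p = 0.0323), without each but 6-week replicate 2 (up to 0.105). Erdr1, which lies in a region with several copies, did not pass in the knockout (1.02, adjusted p = 0.0712) and fell by 5.85 in wild type. Nat8f5, an acetyltransferase gene, stood at -1.10 in the knockout (adjusted p = 0.102) and rose by 3.72 in wild type.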

How the data were processed

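Total RNA of whole liver was labelled with cyanine 3 and hybridised to 1-colour Agilent arrays, per the labels' protocols. The authors quantified them with Agilent Feature Extraction 10.7.3.1, per the submitters' processing notes, and deposited a processed intensity per spot that was already background-subtracted and not scaled between arrays. The deposited series table held the same intensity, rounded, with differences below 0.5%; its values are linear, not centred, and the median of its knockout columns ran from 21.6 to 26.0. Each of 55681 probes, from 59305 spots that were not controls, was taken as log2 intensity minus its array's 75th percentile. Gene names came through the RefSeq gene table: 26681 probes by accession, 2541 by symbol, 474 by synonym; the other 25985 keep the array's own name. Probe positions are mm9, as deposited by the authors.

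Testing was limited to the 29807 probes (53.5%) that 1 group or more had well above background on each of its 3 arrays, and the brightest probe stood for each of 22125 genes. Group means over the 12 arrays were fitted with limma (version 3.58.1, R 4.3.3) by lmFit and eBayes, with 8 residual and 2.24 prior degrees of freedom, with the contrasts 12 minus 6 weeks in each genotype and their difference. Tests were two-sided, with Benjamini-Hochberg adjustment over all genes and a threshold of 0.05; errors are standard errors of the fit. In data simulated for the knockout comparison over 22119 genes, 18, 36, 47 and 47 of 50 genes changed by 0.5, 1, 2 and 3 on the log2 scale were recovered, with 14 false calls. No spot was saturated, and the number of arrays limits the precision.

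A fold written "at least" divides the bright group's mean by a floor for the dim group, the mean over its arrays of the dimmest signal still well above background, or of the probe's own signal where that was higher. The genes named are the 15 largest rises and 15 largest falls whose groups did not overlap, the 8 largest differences between genotypes in each direction, members of gene lists, and Il18; names that are only identifiers or predicted genes were left out. Not every gene taken by these rules is named. The arrays, the gene lists and the tests were chosen with earlier results of these data known, and no list was tested as a set. Ddit4, Depp1, Psat1, Raet1a, Raet1e, F3, Inhba, Inhbe and the Frizzled genes were chosen after their values were seen. Alternatives changed the background correction, scaling, filter, probe rule, value source, arrays fitted, replicate block, slide and slide row, and left out each array in turn. Arrays with the same replicate number deviated together at correlations of 0.0326, -0.0601 and -0.0638, so the numbers were not taken as pairs.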

Additional observations from a re-analysis of the deposited data

Results flagged for a closer look

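The age difference differed between the genotypes, by a test of that difference over all genes (limma, knockout 12 minus 6 weeks minus wild type 12 minus 6 weeks, 3 arrays per group), for 96 of the 160 genes named, 53 with a positive and 43 with a negative value. By the same test 10.4% of all genes passed, a share that the genes named cannot be read against, since many were chosen for the size of these differences. With the slide as a fixed block 14 of the genes named lost this call and 1 gained it. The largest adjusted p among the genes given here was 0.0406. Values in brackets are log2 differences. 

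Among the clock genes, the difference was positive for Ciart (10.76), Dbp (8.06), Usp2 (7.14), Per3 (6.04), Wee1 (5.20), Rgs16 (4.47), Per2 (4.08), Tef (3.67), Nr1d2 (2.37), Nr1d1 (1.87), Por (1.84), Nampt (1.65), Hlf (1.49), Cry2 (1.31) and Mknk2 (1.26). It was negative for Rora (-0.70), Clock (-1.68), Avpr1a (-1.69), Leo1 (-1.99), Rnf125 (-2.19), Nfil3 (-3.06), Npas2 (-3.52) and Arntl (-6.31). Among genes of glucose, lipid and amino acid metabolism, the difference was positive for Cyp4a14 (2.74), Cidec (2.50), Cd36 (2.33), Mat1a (1.65), Mogat1 (1.56), Slc2a2 (1.44), Sds (1.41), Gys2 (1.31), Pparg (1.17), Pfkfb1 (1.16), Aldh3a2 (0.93), Ppara (0.82), Stard4 (0.80), Acaa1a (0.70) and Gnmt (0.64). It was negative for Abca1 (-0.39), Apom (-0.53), Apoa1 (-0.71), Irs2 (-1.71), Psat1 (-2.19), Ppard (-2.41), Acsm2 (-3.14), Pdk4 (-3.63), G6pc (-3.65), Igfbp1 (-3.65) and Mthfd2 (-4.37). Among sex-biased genes, the difference was positive for Cyp2b13 (7.71), Sult1e1 (3.47) and Cyp2a4 (2.86). It was negative for C8b (-0.93), Slco1a1 (-1.05), C6 (-3.74), Cspg5 (-3.94) and Elovl3 (-7.12). Among genes of growth control, the difference was positive for Gadd45a (2.52), Igf2bp3 (1.94), Meg3 (1.73), Ccne1 (1.15) and Ccng1 (0.83). It was negative for Trp53inp1 (-1.90), Mki67 (-2.06) and Cdkn1a (-5.31). Among complement, interferon and blood cell genes, the difference was positive for Klf1 (2.17). It was negative for Cfb (-0.58), Camp (-0.78), Bst2 (-0.83), C8a (-0.97), Cmpk2 (-1.10) and C9 (-1.60). Of the remaining genes, it was positive for Erdr1 (6.87), Flacc1 (5.51), Gsta2 (2.19), Fzd8 (2.13), Nqo1 (1.94), F3 (1.90), Inhbe (1.76), Fzd4 (1.71), Raet1e (1.67), Nr2f2 (1.07), Slc39a14 (1.02), Gstt1 (0.87), Nr1h4 (0.82) and Cebpa (0.79). Those with a negative value were Hspb1 (-0.94), Gclc (-1.43), Inhba (-2.33), Dnmt3b (-2.85), Adamts4 (-3.35), Meox1 (-3.59), Grk5 (-4.27), Loxl4 (-4.44), Tubb2a (-4.80) and Nat8f5 (-4.83).

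Values of Ciart, Cyp2b13, Flacc1, Igf2bp3, Mthfd2, Npas2, Per3 and Sult1e1 include groups in which the probe was not well above background and are fitted values, not bounds. No wild type array of 6 weeks shared the slide of the knockout arrays, so that slide and group are partly confounded in each of these values. Groups of 3 arrays are too small for a test of single outlying arrays, and none was made.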

How the results depend on the processing

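Of the 131 genes named that passed, 0 changed the sign of the knockout age difference in the alternatives run for single genes. Of the same genes, 70 passed with each of the 6 knockout arrays left out in turn, 77 with the slide row as a block, 46 in the fit limited to the 8 arrays of slide row 2 (4 of the knockout), and 29 in every alternative.

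Counts of genes depended more on the settings. Leaving out single arrays gave 582 to 891 genes between the ages in the knockout, 339 to 508 higher and 243 to 383 lower, the fewest without 12-week replicate 2. With no filter on dim probes 728 passed (424 higher, 304 lower), with the slide row as a block 739 (441 higher, 298 lower), and with slide row 2 alone 416 (285 higher, 131 lower; 2 clock genes lower), where 1 array of 6 weeks is assumed to vary like the other groups. The replicate block, whose numbers do not pair the animals, gave 1287 genes, 16 clock genes higher and 9 lower, and 2015 genes for the difference between genotypes. With the 6 knockout arrays alone and the replicate block 254 passed (155 higher, 99 lower; 9 clock genes higher), and with the 6 arrays alone 1499, of which 1117 were among the genes called here. The difference between genotypes was passed by 1330 genes with no filter, by 1514 without 12-week knockout replicate 2 and by 3410 without 12-week wild type replicate 1, the range over single arrays left out, and by 1950 with the slide as a random block. Scaling by quantiles or medians, the stricter filters, the mean of probes and the deposited table gave 1458 to 1686 genes, and normexp background correction together with quantile scaling 2065. The causes of these shifts were not tested. Dim probes limit the depth: 39 called genes were not well above background on any 6-week array and 22 on any 12-week array. Sizes of difference varied as well. The smallest among the alternatives was -1.03 for Meox1, -1.02 for Adamts4, 1.89 for Tchh, 1.45 for Irx1 and -0.60 for Cry1.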

Other observations

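Receptors and enzymes outside the comparisons above also moved in the knockout. Of 8 Frizzled genes, receptors for Wnt ligands, 3 rose from 6 to 12 weeks (6.78% of all genes passed). All genes of this paragraph were chosen after their values were seen, so the count cannot be read against that share. Fzd4 had levels of 1.96, 2.23 and 1.87 at 6 weeks and 2.98, 3.27 and 3.35 at 12 weeks (1.18 ± 0.20, adjusted p = 0.00805). Fzd8 had -0.52, -0.80 and -0.69 at 6 weeks and 0.78, 0.52 and 0.59 at 12 weeks (1.30 ± 0.22, adjusted p = 0.00844, and 0.0535 with the slide row as a block). The groups were apart for both receptors. Fzd7 rose by 1.26 (adjusted p = 0.0316), a call lost without each knockout array but 6-week replicate 1 (up to 0.103). Its second probe, at 0.48, did not pass. Fzd1, Fzd2, Fzd3, Fzd5 and Fzd6 did not pass, at -0.17 to 0.71. F3, tissue factor, which starts coagulation, rose by 1.82 ± 0.30 (adjusted p = 0.00679). Of the activin subunit genes, Inhba fell by 1.97 ± 0.33 on the log2 scale (adjusted p = 0.0076) and Inhbe rose by 1.42 ± 0.33 (adjusted p = 0.0301), the latter lost without replicates 2 and 3 of either age (up to 0.112). Psat1, of serine synthesis, fell by 1.29 on the log2 scale (adjusted p = 0.0174, and 0.0723 without 12-week replicate 2), and Depp1, a FOXO-responsive gene, by 1.75 (adjusted p = 0.0219), lost without replicates 2 and 3 of either age (up to 0.0886).

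Of 32 genes of xenobiotic metabolism, 4 rose and 2 fell (18.8%), and of 14 Nrf2 and glutathione genes 1 rose and 1 fell (14.3%). Over all genes, 6.78% passed. Gclc, the catalytic subunit of glutathione synthesis, had levels of 6.72, 6.51 and 6.63 at 6 weeks and 5.91, 5.84 and 5.71 at 12 weeks (-0.80 ± 0.10, adjusted p = 0.00175), while it rose by 0.63 in wild type. Cyp2c70, which makes muricholic acids, fell from 9.18, 8.97 and 8.94 to 8.22, 7.93 and 8.35 (-0.86 ± 0.12, adjusted p = 0.00368). Both were clearly apart by age. Gsta2 rose by 1.33, Nqo1 by 0.84 and Gstt1 by 0.54, and Cyp1a2 fell by 0.37 on the log2 scale. These calls were each lost in 4 or 5 of the 6 fits that left out 1 knockout array (adjusted p up to 0.149). Of 19 bile acid genes 1 rose and 1 fell. Nr0b2, the corepressor SHP, fell by 1.41 on the log2 scale (adjusted p = 0.0214), lost without replicates 1 and 2 of 6 weeks and 2 and 3 of 12 weeks (up to 0.0761), and Nr1h4, its activator FXR, rose by 0.33 (adjusted p = 0.0361), lost without any single knockout array (up to 0.134).

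Of 15 hepatocyte transcription factors 2 rose (13.3%, against 6.78% of all genes). Cebpa had levels of 4.90, 4.78 and 4.78 at 6 weeks and 5.52, 5.47 and 5.43 at 12 weeks (0.65 ± 0.08, adjusted p = 0.00142), and Nr2f2 rose by 0.70 (adjusted p = 0.00679). Of 21 genes of amino acid breakdown and the urea cycle 4 rose, namely Sds, serine dehydratase, by 0.71 (adjusted p = 0.00699), Mat1a by 0.86, Oat by 0.86 and Gnmt by 0.45. The last 3 calls were each lost in 4 or more of the 6 fits that left out 1 knockout array (adjusted p up to 0.126). Of 14 heat shock genes 2 rose (14.3%), Hspb1 by 0.67 and Hspa4l by 0.50. Both calls were lost in 5 of the 6 fits that left out 1 knockout array (adjusted p up to 0.128). Slc39a14, a zinc and iron importer and the only one of 19 iron genes to pass, rose by 0.82 ± 0.09 (adjusted p = 0.00124). Of 20 oxidative phosphorylation genes 0 passed by limma (1 at an unadjusted p under 0.05), with a median of -0.0031.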
